A study of Homo sapiens with 5 samples.

Results

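The comparison described here sets cells that received dCas9-BFP-EGFP and 5 *uPA* gRNAs against cells that received pUC19, by RNA sequencing. It rests on 2 of the 5 libraries of the study, 1 for each side, chosen by the sample titles. The cells were HEK293T, a line derived from human embryonic kidney and expressing SV40 large T antigen. dCas9-BFP-EGFP joins a Cas9 without nuclease activity (dCas9) to a blue fluorescent protein (BFP) and to EGFP, which has no methyltransferase activity, and it was driven by the PGK promoter. pUC19 is a cloning plasmid that encodes neither dCas9 nor a gRNA nor BFP. Both groups received 1 ug of plasmid, and RNA was taken 48 h later. The labels state that BFP-positive cells were sorted in every group, which pUC19 alone cannot give, so how the control cells were gated is not known. The other 3 libraries came from cells with the same gRNAs and dCas9-BFP fused to the catalytic domain of DNMT1, DNMT3A or DNMT3B, and they are given below only beside the values of the pair. dCas9, the gRNAs, BFP and EGFP were all on 1 side of the comparison, any difference in gating would go with them, and their parts cannot be told apart.

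Bound dCas9 lies on DNA without cutting it. At a promoter, or just downstream of a start site, it can stand in the way of transcription, a use known as CRISPR interference. The base pairs between gRNA and DNA nearest the PAM, the NGG motif next to the target, form the seed and matter most for binding. The target gene, *uPA* (symbol PLAU), encodes the urokinase plasminogen activator, a secreted protease that turns plasminogen into plasmin. A pathway that recurs below is the integrated stress response, in which kinases that sense amino acid shortage, misfolded protein, viral RNA or lack of heme phosphorylate the initiation factor eIF2 and so favour translation of the transcription factor ATF4. ATF4 and its partners bind the C/EBP-ATF response element in the promoters of genes for amino acid transport, amino acid synthesis and stress signalling.

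The 5 gRNAs are shown first because they are what the fusion was directed with. Each matched the genome (GRCh37) exactly at PLAU, next to an NGG PAM. Below, each 20-base target is followed by its PAM, written 5′ to 3′ on the strand that carries the PAM. Capitals mark the 12 bases nearest the PAM and the GG of the PAM.
uPA-T1: gtgagcgtTGCGGAAGCACGcGG
uPA-T2: gagccgggCGGGAGAGGGAGgGG
uPA-T3: gagtcaagGCGCCCCGTCCCgGG
uPA-T4: gcccggggATCTCAGGACCGcGG
uPA-T5: gggacaggTGGACCCTGGCCcGG

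PLAU occupies chr10:75668935-75677254 (plus strand), and its canonical transcript starts at position 75670890. T1 (chr10:75670761-75670780, plus strand) and T2 (chr10:75670819-75670838, plus strand) lay upstream of that start, at -129 to -110 bp and -71 to -52 bp, within an intron of 2 longer PLAU transcripts. T5 (chr10:75670920-75670939, minus strand) lay 30 to 49 bp downstream, in the first exon of 3 PLAU transcripts. T4 (chr10:75670987-75671006, minus strand) lay 97 to 116 bp downstream and T3 (chr10:75671093-75671112, plus strand) 203 to 222 bp downstream, both in an intron of 5 PLAU transcripts. All 5 targets also lay in exon 5 of C10orf55, a gene on the opposite strand. T2 had the most G and C bases, 16 of 20, and the other guides had 13 to 15. T2 had 1 further exact match in the genome, which had no NGG PAM, and the other 4 guides had none.

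PLAU, the targeted gene, was lower in the EGFP fusion library. It had 106 reads in pUC19, which is 2.93 reads per 1000000 (RPM) with a 95% exact interval of 2.40 to 3.55. In the EGFP fusion it had 4 reads, which is 0.152 RPM with an interval of 0.0415 to 0.390. The intervals did not overlap. Reads touched 79.65% of the transcript in pUC19 and 11.94% in the EGFP fusion. In TPM (reads per transcript length, scaled to the same sum in each library) PLAU went from 2.48 to 0.132, an 18.8-fold lower level, and the log2 ratio of TPM + 0.1 was -3.47 (adjusted p = 1.78e-19, two-sided exact binomial test on the reads). The log2 ratio was -1.62 with a pseudocount of 1 TPM, since the gene was low in both libraries, and the call held. That test, used throughout, compares the reads of 2 libraries and not 2 conditions, because each group had 1 library and no spread between replicates could be measured. In RNA from a bulk of cells, fewer cells that express a gene and less RNA per cell cannot be told apart.

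The 3 methyltransferase fusions had 6, 6 and 1 PLAU reads (DNMT1, DNMT3A and DNMT3B). None was called against the EGFP fusion, which had 4 (adjusted p = 0.957, 0.999 and 0.497, exact binomial test), and at so few reads a difference between these 4 libraries was not detectable at this depth. The genes within 100000 bp of PLAU were not called. C10orf55 had 6 reads in pUC19 and 4 in the EGFP fusion. NDST2, which makes heparan sulfate, was at 15.0 and 15.9 TPM. CAMK2G, a calcium-dependent kinase, was at 38.3 and 37.2 TPM. VCL, which encodes the adhesion protein vinculin, was at 74.2 and 59.9 TPM, a log2 ratio of -0.31. Of 13 genes of the plasminogen activator system with reads, PLAU alone was called (7.69% lower, against 3.10% of all genes), a share that rests on 1 gene. Its receptor PLAUR was at 9.23 and 8.18 TPM, the tissue-type activator PLAT at 18.2 and 12.5 TPM, and the inhibitor SERPINE2 at 21.8 and 20.9 TPM. The highest log2 ratio of the list was 1.10, in a gene that was not called.

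Across the transcriptome the pair was close. The pUC19 library held 36140000 reads on genes and the EGFP fusion library 26250000 (rounded to the nearest 10000), a ratio of 1.38, so 3 reads, taken as the smallest level either could show, were 0.083 and 0.114 RPM. Reads were seen for 17613 genes in both, for 882 in pUC19 only (at most 18 reads) and for 630 in the EGFP fusion only (at most 31 reads). Spearman's rho of log2 TPM was 0.980 across the 17613 genes, which are not independent of each other, and the median log2 ratio over the 19125 genes with a read was -0.0032. With the thresholds of the study, adjusted p no higher than 0.001 and at least a 2-fold change of TPM + 0.1, 497 genes were called higher in the EGFP fusion (2.60% of those tested) and 593 lower (3.10%), or 5.70% in either direction. Most calls were of moderate size by the ratio of TPM + 0.1: 358 of the higher and 434 of the lower genes changed by at most 3-fold, while 74 and 55 changed by at least 4-fold. "Called", "rose" and "fell" are used below for genes past both thresholds, on reads alone. When a biological coefficient of variation of 0.2 between libraries was allowed for (edgeR exact test), 31 genes stayed higher and 28 lower, PLAU among them (adjusted p = 3.25e-06). Called members of the gene lists and RNA classes below lost their calls with it unless they are stated to have stayed called. With a pseudocount of 1 TPM the counts were 295 and 353.

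**Figure D1:**
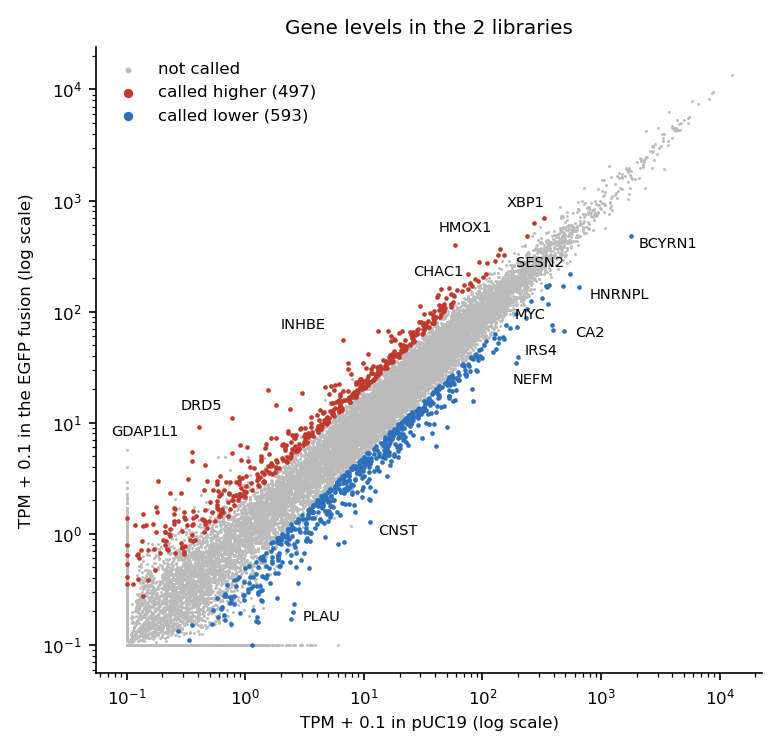
TPM + 0.1 of each gene in pUC19 (horizontal, log scale) and in the EGFP fusion (vertical, log scale); red points are the 497 genes called higher, blue points the 593 called lower, grey points the rest. Named genes such as GDAP1L1, INHBE and HMOX1 lie above the diagonal, and PLAU, CNST, CA2 and BCYRN1 below it.

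The markers of the cells went with the label. All 12 genes listed for HEK293 and embryonic kidney had reads, with VIM, an intermediate filament gene, at 437 TPM in pUC19 and 502 in the EGFP fusion, KRT18 at 94.0 and 90.0, and PAX2, a kidney transcription factor, at 7.55 and 6.08. Their summed level was 1023 TPM in pUC19 and 867 in the EGFP fusion. Of the 12, 3 had a ratio above 1, and the median log2 ratio was -0.17. Both called members fell (16.7%, against 3.10% of all genes), the neurofilament genes NEFM and NEFL (90.7 to 28.9 TPM). Of 12 markers of blood, endothelial cells, fibroblasts and liver, CD3E, CDH5 and COL1A2 had no read in any library, the other 9 summed to 13.8 and 10.8 TPM, and 0 were called. PTPRC, which marks white blood cells, was at 0.219 and 0.163 TPM, and HBB, a globin gene, had 1 read and 0 reads.

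Among the genes with the largest increases, several encode secreted signals of stressed cells. GDF15, a cytokine of the TGF-beta family, had 5 reads in pUC19 and 74 in the EGFP fusion, which is 0.257 and 5.37 TPM. FGF21, a hormone released under metabolic stress, had 12 and 66 reads, which is 0.801 and 6.22 TPM. INHBE, which encodes the inhibin beta E subunit, rose from 6.62 to 55.7 TPM, 8.42-fold, and its counting interval on the log2 scale ran from 2.88 to 3.27. In all 3 genes the EGFP fusion had the highest level of the 5 libraries, and pUC19 the lowest.

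HMOX1, heme oxygenase, which breaks down heme, rose 6.85-fold, from 58.5 to 401 TPM (log2 interval 2.70 to 2.86). The other fusions were at 362 (DNMT1), 734 (DNMT3A) and 1155 TPM (DNMT3B), so the EGFP fusion was not the highest here. FAM129A, a stress-induced regulator of translation also called NIBAN1, rose from 2.92 to 18.3 TPM. AKNA, an AT-hook protein, rose from 1.71 to 14.4 TPM.

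Among genes with at least 5 TPM in either library the greatest ratio was that of GDAP1L1, a relative of the mitochondrial fission factor GDAP1, at 0.308 TPM (14 reads) in pUC19 and 8.99 TPM (290 reads) in the EGFP fusion, 29.2-fold. DRD5, a dopamine receptor gene with near-identical pseudogene copies that make its count uncertain, rose from 0.680 to 10.9 TPM, and ELSPBP1, a sperm-binding protein gene of the epididymis, from 1.46 to 19.6 TPM. FAM57B, a ceramide synthesis gene, rose from 0.678 to 5.29 TPM. TEX19, a germ cell gene, rose from 0.932 to 5.90 TPM, with 14.6 and 11.8 TPM in the DNMT3A and DNMT3B fusions. FUT1, which makes the H blood group antigen, rose from 2.30 to 13.3 TPM. Each of these 6 genes was below 3 TPM in pUC19. All 12 genes of this set stayed called with a coefficient of variation of 0.2.

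Among the genes with the largest decreases were some of the more abundant genes of these cells. CA2, carbonic anhydrase, fell from 489 to 67.5 TPM, 7.25-fold (log2 interval -2.94 to -2.77), and the other fusions were at 98.9 to 103 TPM. IRS4, the insulin receptor substrate that HEK293 cells are known for, fell from 396 to 68.2 TPM, 5.81-fold, with 66.3 to 76.5 TPM in the other fusions. NEFM, the medium neurofilament gene, fell from 193 to 34.3 TPM, and ADAMTS1, a secreted metalloprotease, from 50.4 to 9.08 TPM. PDE9A, which breaks down cGMP, fell from 40.5 to 6.11 TPM. For these 5 genes all 4 fusion libraries were below pUC19, and all share that single control.

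CNST, which encodes the connexin transport protein consortin, fell from 11.1 TPM (923 reads) to 1.17 TPM (69 reads), and the other fusions spread over 2.61, 10.2 and 6.82 TPM (DNMT1, DNMT3A and DNMT3B). AMN1 fell from 6.73 to 0.750 TPM. AKR1B15, an aldo-keto reductase with a closely similar neighbour (AKR1B10) that makes its count uncertain, fell from 5.90 to 0.708 TPM. The short-chain dehydrogenases DHRS2 and DHRSX fell from 11.2 to 1.92 and from 10.9 to 1.98 TPM. FAM216A fell from 83.8 to 15.7 TPM and FAM78A from 8.35 to 1.48 TPM. All 12 genes of this set, too, stayed called with a coefficient of variation of 0.2.

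**Figure D2:**
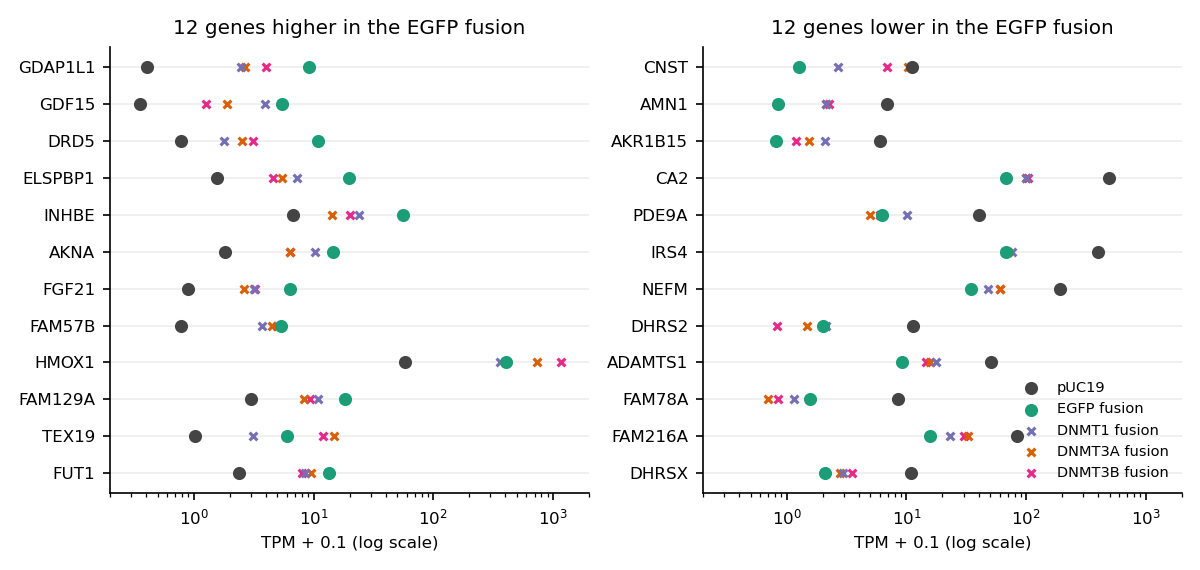
TPM + 0.1 (log scale) of the 12 genes with the largest increases (left) and the 12 with the largest decreases (right) among called genes with at least 5 TPM in either library; circles are pUC19 and the EGFP fusion, crosses the other 3 fusions, 1 library each. For HMOX1 and TEX19 the DNMT3A and DNMT3B fusions lie above the EGFP fusion.

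By difference in level rather than ratio, the list changed. Besides HMOX1, the increases were SESN2 (139.8 to 369.5 TPM), a leucine sensor that restrains mTORC1, HERPUD1 (93.5 to 279.9 TPM), a factor of protein disposal at the endoplasmic reticulum, XBP1 (237 to 482 TPM), a transcription factor of the unfolded protein response, MTRNR2L3 (274 to 629 TPM) and MIR4461 (331 to 689 TPM). MTRNR2L3 is a nuclear copy of mitochondrial ribosomal RNA and MIR4461 a row of 74 bases, so both counts are uncertain, and the latter lost its call when the length trend was removed. Besides CA2 and IRS4, the decreases were HNRNPL (655 to 168 TPM), a splicing factor, RBBP7 (549 to 220.2 TPM), a histone chaperone, MYC (387 to 75.5 TPM), and BCYRN1 (1779.8 to 480.4 TPM), a short RNA that resembles Alu repeats and is therefore uncertain. With a coefficient of variation of 0.2, HMOX1, CA2, HNRNPL, IRS4 and MYC stayed called and the others did not.

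Genes of the integrated stress response rose or were not called, and none fell. Of 23 genes tested, 10 rose (43.5%, against 2.60% of all genes) and 0 fell, 21 had a ratio above 1, and the median log2 ratio was 0.84. Beside GDF15, FGF21 and SESN2, the members that rose were DDIT3 (29.9 to 113 TPM), the CHOP transcription factor, CHAC1 (42.0 to 141 TPM), which degrades glutathione, TRIB3 (36.0 to 96.8 TPM), a pseudokinase that restrains ATF4, NUPR1 (5.21 to 21.1 TPM) and JDP2 (6.15 to 17.1 TPM), both nuclear stress factors, CEBPG (54.6 to 116 TPM), a dimer partner of ATF4, and PPP1R15A (21.5 to 47.0 TPM), which directs the phosphatase that reverses the response. ATF4 itself, which is controlled mainly at translation, was at 1210.3 and 1635 TPM, a log2 ratio of 0.43, and ATF3 at 67.4 and 116 TPM, a log2 ratio of 0.78, and neither was called. With a coefficient of variation of 0.2, FGF21 and GDF15 stayed called.

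The amino acid transporters, many of them targets of ATF4, gave 5 of 15 genes that rose (33.3%, against 2.60% of all genes) and 0 that fell, with a median log2 ratio of 0.63. SLC1A4, a carrier of neutral amino acids, went from 15.8 to 66.9 TPM, 4.24-fold, and stayed called with a coefficient of variation of 0.2. SLC7A1 (109 to 273 TPM) and SLC7A3 (14.5 to 36.2 TPM) carry cationic amino acids, SLC7A11 (15.1 to 36.1 TPM) carries cystine, and SLC6A9 (24.3 to 50.7 TPM) glycine. SLC7A5, the leucine carrier, missed the fold threshold at 237 and 471 TPM.

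The enzymes of amino acid synthesis and one-carbon metabolism were mixed. Of 22, 2 rose (9.09%, against 2.60% of all genes) and 1 fell (4.55%, against 3.10%). CTH, which makes cysteine, rose from 75.1 to 219 TPM and GPT2, which makes alanine, from 60.4 to 156 TPM, while MTHFD1, a folate enzyme, fell from 345 to 171 TPM, a call that was lost when the libraries were thinned to equal totals. The other 19 of 22 were not called, among them the asparagine synthetase ASNS at 446 and 871 TPM, a log2 ratio of 0.96. Among 20 aminoacyl-tRNA synthetases, which load tRNAs and include known ATF4 targets, 0 rose and 2 fell (10.0%, against 3.10% of all genes). IARS fell from 354 to 117 TPM and YARS from 476 to 171 TPM.

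**Figure D3:**
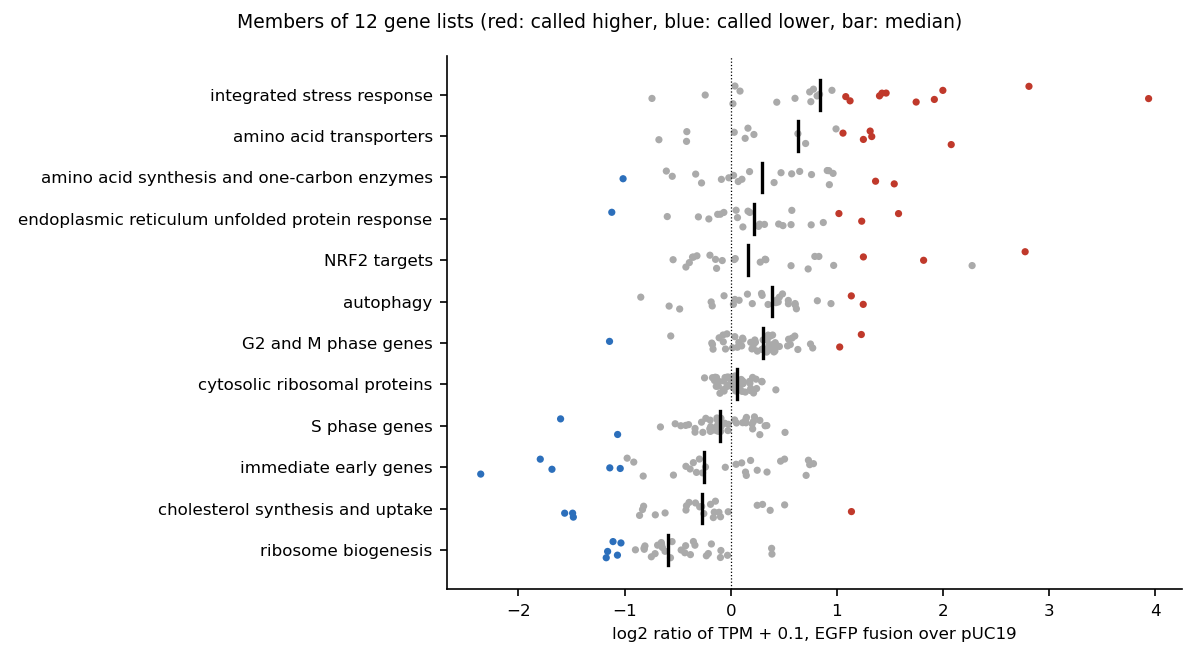
Log2 ratio of TPM + 0.1 between the EGFP fusion and pUC19 for each member of 12 gene lists; red and blue points were called higher and lower, grey points were not called, and black bars are medians. The integrated stress response has its median at 0.84 and ribosome biogenesis at -0.59.

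In the unfolded protein response of the endoplasmic reticulum, 3 of 24 genes rose (12.5%, against 2.60% of all genes) and 1 fell (4.17%), with a median of 0.22. HERPUD1 and XBP1 were joined by ERN1 (5.40 to 12.8 TPM), which encodes the IRE1 sensor that splices XBP1 RNA, while CRELD2 fell from 45.2 to 20.7 TPM. HSPA5, the chaperone BiP, was at 296 and 439.8 TPM and was not called. Among 24 targets of NRF2, the factor of the antioxidant response, 3 rose (12.5%) and 0 fell, with a median of 0.16: HMOX1, OSGIN1 (0.737 to 2.85 TPM) and SLC7A11. NQO1, a standard marker of NRF2, was at 5.30 and 9.26 TPM, and GCLM, a subunit of the glutathione-making ligase, at 19.8 and 38.9 TPM, and neither was called. Of 25 heat shock genes, DNAJB1 (92.2 to 188 TPM), HSPA2 and DNAJB4 rose (12.0%, against 2.60% of all genes). The stress-induced HSPA1A, at 19.4 and 13.3 TPM, and HSPA1B, at 251 and 155 TPM, were not called. With a pseudocount of 1 TPM, DNAJB1 alone of the 3 stayed called. HSPA1A and HSPA1B are near-identical, so unique reads split them uncertainly. Of these lists, HMOX1 alone stayed called with a coefficient of variation of 0.2.

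Transfected DNA and RNA can be sensed by interferon pathways, so these were read as well. Of 34 interferon-stimulated genes and RNA sensors, OAS3, which senses double-stranded RNA, rose (18 reads in pUC19, 90 in the EGFP fusion) and 0 fell. The share that rose, 2.94%, was near the 2.60% of all genes. The median was 0.010, and it turned to -0.00017 with TMM scaling. ISG15 had 67 and 32 reads, IFIT1 253 and 130, and IFIH1 31 and 26, and none was called. OAS3 stayed called with a coefficient of variation of 0.2 and did not with a pseudocount of 1 TPM.

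MYC, the transcription factor that drives growth genes, fell 5.12-fold, from 387 to 75.5 TPM (14673 and 2028 reads), with a log2 interval of -2.42 to -2.29. The other fusions were at 88.2, 73.8 and 65.5 TPM. MAX, its partner, was at 101 and 85.3 TPM and was not called. Among 30 immediate early genes, which respond within minutes to growth signals, 5 fell (16.7%, against 3.10% of all genes) and 0 rose, with a median of -0.25. Beside MYC these were ARC (41 to 6 reads), FOS (112 to 23 reads), NR4A2 (4.19 to 1.85 TPM) and NR4A3 (2.69 to 1.26 TPM). EGR1 was at 6.06 and 5.85 TPM and JUN at 128 and 88.2 TPM, and neither was called. With a pseudocount of 1 TPM, MYC and FOS stayed called and the other 3 did not. MYC alone of them stayed called with a coefficient of variation of 0.2.

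Ribosome biogenesis, a process whose genes include many known MYC targets, was lower across nearly the whole list. Of 32 genes, 30 had a ratio below 1, the median log2 ratio was -0.59, and 5 fell (15.6%, against 3.10% of all genes) while 0 rose. With the trend of the ratio on gene length removed, RRS1 and RRP9 stayed called and NOP16, LYAR and PPAN did not, so 5 became 2. The 5 were NOP16 (125 to 57.8 TPM), RRS1 (33.8 to 14.9 TPM), RRP9 (56.9 to 25.4 TPM), LYAR (157 to 75.1 TPM) and PPAN (81 to 27 reads), the last of which shares its transcript region with a read-through gene, is uncertain, and also lost its call under TMM and median-ratio scaling. NPM1, nucleophosmin, at 3372 and 1915 TPM, and NCL, nucleolin, at 1374 and 1056 TPM, were not called. The exceptions in direction were RRP1B and POLR1A. Of 56 cytosolic ribosomal proteins, 0 were called and log2 ratios ran from -0.25 to 0.43. With a coefficient of variation of 0.2, 0 genes of ribosome biogenesis stayed called.

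Calls among metabolic genes went both ways. In cholesterol synthesis and uptake, 3 of 27 fell (11.1%, against 3.10% of all genes), the enzymes IDI1 (129 to 46.2 TPM), SQLE (122 to 43.3 TPM) and MSMO1 (51.7 to 17.4 TPM), and SREBF1, a transcription factor of lipid synthesis, rose from 17.7 to 39.0 TPM. In insulin and IGF signalling, 3 of 36 fell (8.33%), IRS4, the adaptor GRB14 (10.4 to 4.13 TPM) and the binding protein IGFBP5 (30.5 to 12.0 TPM), and RPTOR, a subunit of mTORC1, rose from 25.7 to 56.8 TPM. IRS1, at 3.03 and 3.84 TPM, and IRS2, at 4.41 and 2.40 TPM, were not called. SDHA, a subunit of succinate dehydrogenase, fell from 197 to 73.1 TPM and was the 1 call among 38 genes of oxidative phosphorylation (2.63%). Glycolysis had 0 calls of 23.

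Growth and death genes were split as well. Among 26 p53 targets, 4 rose (15.4%, against 2.60% of all genes) and 2 fell (7.69%, against 3.10%). CDKN1A, the p21 cell cycle inhibitor, rose from 20.1 to 42.7 TPM and TP53INP1 from 3.94 to 11.7 TPM, next to SESN2 and GDF15, which are also on the stress response list. PLK2 fell from 4.16 to 1.71 TPM and RRM2B, a ribonucleotide reductase subunit, from 16.3 to 7.77 TPM, and both lost their calls with a pseudocount of 1 TPM. HEK293T cells carry large T antigen, which binds p53. In the BCL2 family, 2 of 18 fell (11.1%), the protective members BCL2 (2.56 to 0.573 TPM) and BCL2L1 (25.7 to 7.60 TPM). BMF, a promoter of cell death, rose from 5.78 to 15.2 TPM (5.56%). BCL2L1 was at 33.9 and 26.6 TPM in the DNMT3A and DNMT3B fusions, at or above pUC19.

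Among 44 S phase genes, 2 fell (4.55%) and 0 rose, with a median of -0.10. These were CCNE1, cyclin E, from 52.3 to 17.1 TPM, and BLM, a helicase, from 55.7 to 26.6 TPM. Among 52 genes of G2 and M phase, 42 had a ratio above 1, with a median of 0.31, but 2 rose (3.85%) and 1 fell (1.92%), shares near the 2.60% and 3.10% of all genes. MKI67, the Ki-67 antigen, went from 107 to 218 TPM, GAS2L3 from 20.7 to 48.6 TPM, and KIF20B, a mitotic kinesin, from 41.1 to 18.6 TPM. MKI67 lost its call when the length trend was removed.

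In TGF-beta and BMP signalling, 5 of 37 genes fell (13.5%, against 3.10% of all genes) and 2 rose (5.41%, against 2.60%). The ligand BMP2 (13.3 to 3.54 TPM) and NOG, which encodes the BMP antagonist noggin (4.64 to 0.842 TPM), both fell, as did the ligand TGFB2 (84 to 18 reads), the inhibitory SMAD6 (9.06 to 3.87 TPM) and ID2 (349 to 166 TPM), a target of BMP. INHBE and SMAD9 (26.2 to 54.0 TPM) rose. ID1 was at 19.2 TPM in both. ID2 and SMAD9 lost their calls when the length trend was removed, and TGFB2 with a pseudocount of 1 TPM. INHBE stayed called with a coefficient of variation of 0.2, and so did MAP1A below.

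Of 22 microtubule-associated proteins, MAP1A (7.21 to 30.4 TPM) and MAP1B (30.1 to 81.2 TPM) rose (9.09%, against 2.60% of all genes). None of 19 tubulins was called. Of 28 autophagy genes, the kinase ULK1 (16.2 to 38.6 TPM) and ATG13 of the same complex (40.8 to 89.9 TPM) rose (7.14%). Of the 6 alpha-arrestins, TXNIP, which restrains glucose uptake, rose from 44.7 to 94.2 TPM and ARRDC3 fell from 21.2 to 7.74 TPM. That is 16.7% each way, against 2.60% and 3.10% of all genes. Among 24 hypoxia targets, EGLN2 rose (32 to 52 reads) and NDRG1 fell from 71.5 to 29.9 TPM (4.17% each). Of 10 genes of zinc response MTF1, the zinc-sensing factor, rose from 7.52 to 15.4 TPM (10.0%). Each of these shares rests on very few genes. With a pseudocount of 1 TPM, EGLN2 and MTF1 were not called. None of 34 proteasome genes and none of 17 DNA methylation enzymes was called. The 32 lists held 795 genes with reads, of which 80 were called, where 5.70% of all genes were called in either direction. With a coefficient of variation of 0.2, 11 of those stayed called, where 31 higher and 28 lower genes of all 19125 did. The lists were chosen with earlier results of these data known, so these counts are descriptions.

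The promoters of the stress genes were read for the response element of ATF4. Promoters were taken as 250 bases before and 50 after the RefSeq start (GRCh38.p14), for 14744 of 19716 genes, and the motif was TGATGNAA on either strand, where N is any base. Of 11375 genes with at least 50 reads over the pair and a promoter, 2.82% held it. It was in 8.79% of genes called higher (29 of 330) and in 0.752% of genes called lower (3 of 399). Of 20 integrated stress response genes, 5 held it, and 4 of these (all but ATF3) were called higher. GDF15, SESN2, DDIT3, TRIB3, NUPR1 and PPP1R15A were called higher and were not among those 5, and some list members had no promoter sequence. The windows of the 5 follow, on the strand of the gene, with the motif in capitals. TTGCATCA is the motif read on the other strand.
CEBPG (chr19:33864969-33864992): gcggcgtcTGATGCAAcctgccgg
JDP2 (chr14:75894701-75894724): gccggggcTGATGCAAcccgtccc
FGF21 (chr19:49258719-49258742): caccaggaTTGCATCAgggaggag
CHAC1 (chr15:41245452-41245475): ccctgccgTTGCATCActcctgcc
ATF3 (chr1:212738550-212738573): ggtcaggaTGATGGAAggctgtca

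These places are on GRCh37, found by exact match of the promoter. In CEBPG the motif began 42 bases before the start site, in JDP2 16, in FGF21 54, in CHAC1 209 and in ATF3 191. The antioxidant response element that NRF2 binds, searched as TGACNNNGC on either strand, was in 19.4% of all promoters, in 20.6% of those of genes called higher and in 4 of 16 NRF2 targets. These 4 were GCLM, ME1, PGD and TXNRD1, and none was called. HMOX1, OSGIN1 and SLC7A11, which rose, were not among the 4. The E-box CACGTG, a site that MYC and MAX can bind, was in 12.6% of all promoters, in 14.5% of those of genes called lower, and in 12 of 26 ribosome biogenesis genes (46.2%). Those with the largest decreases among the 12 are below, with the E-box in capitals. Of the 12, RRP9 and LYAR alone were called lower, and BYSL changed least, with a log2 ratio of -0.18. NOP16, RRS1 and PPAN, also called lower, were not among the 12, and some list members had no promoter sequence. Such matches are descriptions of letters and not of binding, and members of a list were chosen for a shared function.
RRP9 (chr3:51975912-51975933): tcagctgcCACGTGagttctgc
LYAR (chr4:4291799-4291820): ggcgagtcCACGTGctccccgc
GNL3 (chr3:52720046-52720067): tcagttcaCACGTGgcgccagc

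RRP9 fell 2.24-fold and LYAR 2.10-fold, while GNL3, a nucleolar GTPase, was at 380.3 and 204 TPM, a log2 ratio of -0.90, and was not called.

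The promoters were also read for the end of each gRNA that lies nearest the PAM. Since HNRNPL was among the largest decreases, its promoter is shown with others that held at least 9 such T2 bases next to an NGG. Capitals mark the run shared with T2 and the GG of the PAM.
uPA-T2: gagccgggCGGGAGAGGGAGgGG
HNRNPL (chr19:39342989-39343011): ggaagttttGGGAGAGGGAGgGG
LMAN1 (chr18:57026495-57026517): gaggaGGGCGGGAGAGGGAGgGG
NRXN3 (chr14:78636654-78636676): ggtctgtgtGGGAGAGGGAGgGG
TENM1 (chrX:124338337-124338359): ggggggaggaGGAGAGGGAGaGG
ATP6V1B1 (chr2:71162933-71162955): tagaggaggaGGAGAGGGAGgGG
SH3PXD2A (chr10:105421418-105421440): ccctCGGGCGGGAGAGGGAGaGG
FIGN (chr2:164592720-164592742): ggaccaggaGGGAGAGGGAGaGG

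HNRNPL shared 11 bases with the PAM end of T2, at a site whose PAM-proximal base lay 21 bases before its start, and fell 3.90-fold, from 655 to 168 TPM. The other fusions, which carried the same gRNAs, were at 189, 144 and 149 TPM. LMAN1, a cargo receptor of the secretory pathway, shared 15 bases in the run and 18 of 20 in all, 17 bases before its start, and fell from 90.1 to 39.3 TPM, with 39.5 to 48.9 TPM in the other fusions. NRXN3, a neurexin gene (11 bases), fell from 4.61 to 1.5 TPM, TENM1, a teneurin gene (10 bases), from 4.91 to 1.85 TPM, and ATP6V1B1, a proton pump subunit (10 bases), from 4.42 to 1.77 TPM, a call lost with a pseudocount of 1 TPM. SH3PXD2A, an adaptor of invasive cell protrusions, had the longest run, 16 bases, and was not called, at 21.5 and 11.3 TPM, a log2 ratio of -0.92, with 10.5 TPM in the DNMT1 fusion and 19.4 and 21.5 TPM in the DNMT3A and DNMT3B fusions. FIGN, a gene for an AAA ATPase, shared 11 bases in the run, as HNRNPL did, and 16 of 20 in all against 12 for HNRNPL. The level of FIGN rose from 8.48 to 17.5 TPM, a call lost with a pseudocount of 1 TPM. So the length of the run did not order the changes among these genes.

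Over 11374 genes with at least 50 reads and a promoter, PLAU left out, 398 fell (3.50%) and 330 rose (2.90%). Of genes whose promoter held at least 5, 6, 7, 8, 9, 10 or 11 T2 bases next to an NGG, the share that fell was 3.90%, 4.0%, 4.81%, 8.39%, 10.7%, 12.2% and 14.3%. These sets lie within each other, and they shrink from 4408 genes at 5 bases to 75 at 9, of which 8 fell, and 21 at 11, of which 3 fell. The share that rose at 9 bases was 5.33%, or 4 genes: FIGN, CAB39L, NLGN3 and FAM159B. All 4 lost their calls with a pseudocount of 1 TPM, and CAB39L and NLGN3 also when thinned. Of the 8 that fell, ATP6V1B1, MGAM and NIM1K lost theirs with that pseudocount. Where runs were not next to an NGG the share that fell was 3.58%, 3.4%, 3.45%, 3.76%, 4.32%, 4.96% and 7.69% at the same 7 lengths, from 9461 genes at 5 bases to 301 at 9 and 65 at 11, so it was also higher at the longest runs. At 12 bases 3 genes with a run next to an NGG remained, of which 1 fell. A run of that length away from an NGG was held by 13 genes, of which 2 fell (15.4%). A gene can be in both kinds of set, so the 2 are not separate groups. Among the 5719 genes with a promoter GC content at or above the median of the 75 genes, 3.62% fell. For the other guides at 8 bases, 0 of 6 genes fell for T1, 1 of 62 for T3, 2 of 31 (6.45%) for T4 and 3 of 103 for T5. For T2 it was 13 of 155 (8.39%). At 9 bases it was 0 of 2 for T1, 1 of 28 for T3, 1 of 6 (16.7%) for T4 and 0 of 13 for T5, against 8 of 75 (10.7%) for T2. Between the EGFP and the DNMT1 fusion, which share the gRNAs, 1 of the 75 genes was called lower (1.33%, against 0.396% of the 11374 genes and 0.473% of all genes tested for that pair). The T2 run, the 9 bases and the promoter window were chosen after the values had been seen, so the shares are descriptions and no test was made. With a coefficient of variation of 0.2, HNRNPL alone of the 75 stayed lower (1.33%), as did 15 of all 11374 genes (0.132%).

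**Figure D4:**
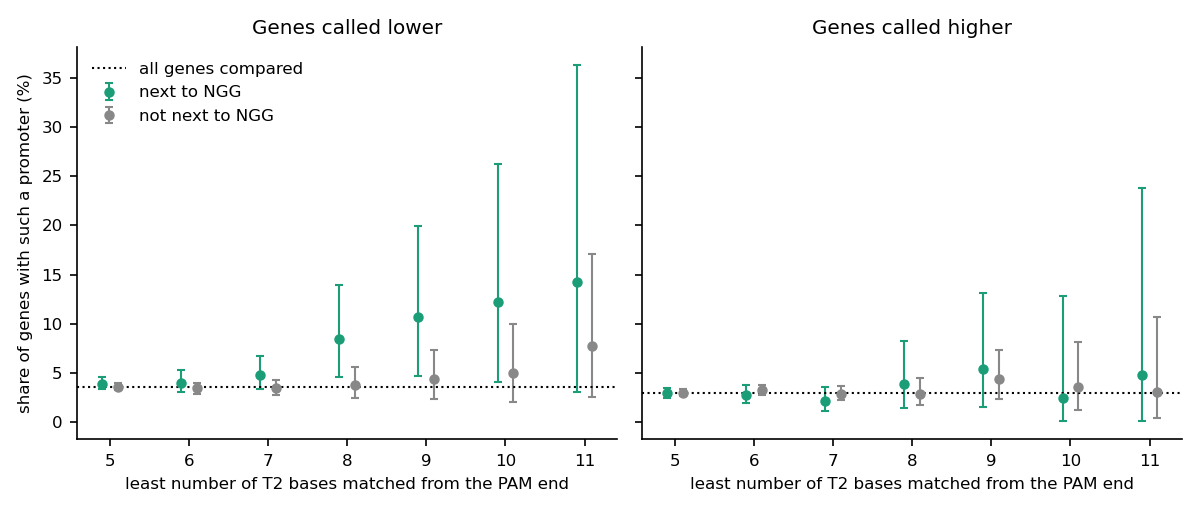
Share of genes called lower (left) and higher (right), in percent, against the least number of T2 bases, counted from the PAM end, that their promoter holds next to an NGG (green) or not next to one (grey); bars are 95% exact binomial intervals over genes, which are not independent, and dotted lines the shares of all genes compared. In the left panel green rises from 3.90% at 5 bases to 14.3% at 11, with wide bars where genes are few. A gene can be in both the green and the grey sets.

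The remaining genes of interest to the study did not pass the thresholds. DNMT1 was at 175 and 163 TPM and DNMT3B at 45.1 and 39.3 TPM, and DNMT3A at 12.0 and 18.9 TPM, a log2 ratio of 0.65, and none was called. The fusions that carry these domains reached 14582 (DNMT1), 33141 (DNMT3B) and 16745 TPM (DNMT3A) on the same rows. TGFBR3, a second locus that the study targeted with gRNAs of its own, not used in these libraries, was at 14.3 and 19.2 TPM. GAPDH, SH2D3C and FAM221A, which the study examined for sequence likeness to the *uPA* gRNA targets, had log2 ratios of 0.02, -0.61 and 0.16, and SH2D3C rested on 61 and 27 reads.

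Where the EGFP fusion library differed from all 4 others, in the same direction and past the thresholds each time, 28 genes were found (0.142% of 19716), 18 higher and 10 lower. LGR6, an R-spondin receptor gene, was at 4.38 TPM and at 0.254 to 1.54 TPM in the others. ALPK2, an alpha-kinase gene, was at 3.0 TPM and at 0.150 to 0.730 TPM in the others. ESRP1, an epithelial splicing factor, had 47 reads against 1, 17, 3 and 11. FLJ46906, a non-coding RNA, was at 67.1 TPM against 13.1 to 27.1, and G0S2, which inhibits the breakdown of stored fat, at 15.0 TPM against 1.61 to 5.39. DRD5, ELSPBP1 and GCSAM (1.90 TPM against 0.515 to 0.692) belonged to this group, and so did INHBE, GDAP1L1 and CTH. Most of these genes were of low level.

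On the lower side, TMEFF1, a transmembrane protein gene, had 6 reads in the EGFP fusion and 33 to 51 in the others. AMN1 had 18 reads against 52 to 228, and CNST 69 against 169 to 923. PHLDA2, an imprinted gene, had 24 reads against 67 to 84, SYT14, a synaptotagmin, 17 against 49 to 62, UNCX, a homeobox gene, 46 against 100 to 193, and LOC284889 141 against 301 to 421. TMEFF1, SYT14, LOC284889 and, above, GCSAM lost their call against pUC19 with a pseudocount of 1 TPM, and PHLDA2 when thinned. The number of such genes depended on the settings: 13 with a pseudocount of 1 TPM, 61 at an adjusted p-value of 0.05, and 0 when a coefficient of variation of 0.2 was allowed for in each pair.

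Some classes of RNA were read by their type. Of 53 histone genes, 5 fell (9.43%, against 3.10% of all genes) and 0 rose, with a median log2 ratio of -0.61. These were HIST1H1C, HIST1H2AC, HIST2H2BE, HIST3H2A and HIST3H2BB. HIST1H1C and HIST3H2BB lost their calls when the length trend was removed, which left 3, and all 5 lost them with a coefficient of variation of 0.2. Histone transcripts mostly lack the poly(A) tail on which the libraries were selected. Of 9 MTRNR2L rows, which are near-identical copies of mitochondrial ribosomal RNA, 2 rose (22.2%, against 2.60% of all genes). The share of all reads on MTRNR2L rows was 0.387% in pUC19, 0.665% in the EGFP fusion and 1.01% in the DNMT1 fusion. The log2 ratio rose slightly with gene length (Spearman's rho = 0.13 across 12897 genes with at least 50 reads in both), and the part of length in the results above was tested by removing its trend, after which 507 genes were called higher and 573 lower.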

How the data were processed

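RNA of 5 HEK293T samples was sequenced on an Ion Proton, 1 library per group, and groups were taken from the sample titles. The authors removed low-quality reads, reads with adaptor and reads under 30 bases, used tmap to map what remained to RefSeq RNA of hg19, allowing 3 mismatches, and kept unique reads. The tmap version is not given in the sources used here. The deposited read counts per gene are whole and not normalized, the deposited TPM values are counts per length scaled to 1 sum, and the deposited coverage in percent was read as the part of a transcript with reads. A gene missing from a table was set to 0 reads. Totals, rounded to the nearest 10000, were 26250000 (EGFP fusion) and 36140000 (pUC19) reads. Intervals and the floor of 3 reads cover counting error only.

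The split of each gene's reads between the libraries was compared with the split of the totals by an exact binomial test, two-sided (scipy 1.17.1), with Benjamini-Hochberg adjustment over 19125 genes, and a call needed an adjusted p no higher than 0.001 and a 2-fold ratio of TPM + 0.1. With 1 library per group no test between replicates exists. Folds of named genes are plain ratios of TPM. Fold thresholds, counts of genes by fold and log2 ratios are of TPM + 0.1 and understate the change of low genes. Alternatives were a pseudocount of 1 TPM, TMM and median-ratio scaling, an edgeR exact test (edgeR 4.0.16, R 4.3.3, DESeq2 1.42.0 for size factors) at a set or estimated dispersion, minimums of 1 TPM or 20 reads, an adjusted p-value of 0.05, thinning to equal totals, and removal of the length trend. Genes were named by rule: PLAU and 7 genes of the study; per direction the 12 largest ratios among called genes with at least 5 TPM, the 6 largest differences in TPM and 8 genes apart from all other libraries; and up to 4 called members per list with its defining members. Neighbours of PLAU, further members of lists and of promoter groups, and the gene classes by symbol were named after their values were seen. The comparison, the 32 lists and the promoter windows were chosen with earlier results of these data known. gRNAs were taken from the supplement of the study, matched to GRCh37 on both strands, and annotated with GENCODE v44 lifted to GRCh37. Promoters were taken from RefSeq (GRCh38.p14) and placed on GRCh37 by exact match. On simulated counts the test recovered 200 of 200 genes changed 4-fold among 18769, with 0 false calls, without spread between libraries. The 200 were drawn only from genes with many expected reads, so recovery at low read counts was not examined. Some genes that the rule names are not reported here.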

Additional observations from a re-analysis of the deposited data

How the results depend on the processing

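No paired analysis was possible because each group had 1 library, and for the same reason no library could be left out. Of the 497 genes higher and 593 lower in the EGFP fusion, 295 and 353 were called with a pseudocount of 1 TPM, 31 and 28 with a coefficient of variation of 0.2, and 31 and 29 with the dispersion of the 4 fusions (a coefficient of 0.199), a dispersion that mixes different fusions and so is no replicate error. The 28 genes apart from all 4 other libraries became 13, 0 and 0 under these, and 61 at an adjusted p-value of 0.05. The 80 called members of the lists became 11 under either dispersion. The 10.7% of genes lower among promoters with 9 or more T2 bases became 1.33% with the coefficient of 0.2, which was HNRNPL alone. The share over all genes compared went from 3.50% to 0.132%. These T2 and list alternatives were added after seeing the data. The other alternatives gave 459 to 712 genes higher and 559 to 760 lower, and the share of higher among calls was 44.5% to 48.4% in them and up to 52.5% with the coefficient of 0.2. PLAU kept its direction and call under all 10 alternatives, with log2 ratios from -3.63 to -1.62. The depth limits PLAU and other genes with a few reads, whose ratios rest on single counts.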
